A study of Homo sapiens with 9 samples.

Results

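LMO1, LMO3, LMO4, LDB1 and LDB2 were followed at the RNA level in LAN5 cells, an established human neuroblastoma line. The genes were chosen by name, as the LIM-only (LMO) proteins and the LIM-domain-binding (LDB) proteins that they partner with. Of the 6 genes of that group, 5 had a row among the 25084 genes of the table, and LMO2 is not analysed here. All 9 libraries came from cells nucleofected (electroporated) with small interfering RNA (siRNA, a short RNA that directs degradation of a matching transcript) and kept in growth medium for 72 h. The 3 groups of 3 libraries differed in the siRNA: the control (siCTR), one directed at MYCN (labelled siMYCN_2) or one directed at HAND2 (labelled siHAND2_3). The labels give 1 siRNA per target, so an effect of lowering the target and an effect of that siRNA's own sequence cannot be told apart. Nothing in the labels says that the 3 libraries of a group came from separate cultures, so p-values measure the spread between these libraries, which may be technical.

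LMO proteins consist almost entirely of tandem LIM domains, zinc-binding modules that hold other proteins and do not themselves bind DNA. They join DNA-binding factors, such as helix-loop-helix dimers and GATA factors, to LDB1 or LDB2, adaptors that bind LIM domains with one part and pair with themselves through another, and so can bring distant DNA elements together. LMO1 is a known neuroblastoma susceptibility gene and oncogene, LMO3 has been described as an oncogene in the same tumour, and LMO1 and LMO2 are activated by translocations in T-cell leukaemia. LMO4 is broadly expressed in developing neural tissue. MYCN and HAND2 are helix-loop-helix transcription factors, the first an amplified driver of neuroblastoma and the second a regulator of sympathetic neuron identity.

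Promoter sequences of the members were examined as a description only. Of the 5 genes, 4 had entries in the RefSeq promoter table (GRCh38.p14, 250 bases before to 50 after an annotated start), with 9 windows in all, 5 of them for LMO3, some of which overlap. Neither LMO2 nor LDB2 had an entry. None of the 9 windows held CACGTG, the E-box bound by MYC family dimers (the same on both strands), which 7.26% of all 35116 windows held. CATCTG, an E-box described for HAND dimers, was found on the other strand, as CAGATG, in 1 of the 9 windows, belonging to LMO3, and in 14.7% of all windows on either strand. GATAA, the core recognised by GATA factors, was searched on both strands, and was in none of the 9 windows and in 22.7% of all. TAATTA, a core recognised by many homeodomain proteins, reads the same on both strands. These last motifs were added after data had been seen. TAATTA occurred in 2 of the 9 windows, those of LMO1 and LMO3 start 1, at 2 places in each, against 4.84% of all windows and 11.8% of the 11464 windows with a GC content no higher than that of LMO1. The sequences that hold a match, and that of LMO4 as one without any, follow 5′ to 3′ on the gene's strand, with matches to TAATTA or CAGATG in capitals. The LMO1 window lies at chr11:8268738-8269037 (minus strand), the LMO3 windows at chr12:16608165-16608464 and chr12:16606113-16606412 (minus strand), and the LMO4 window at chr1:87328630-87328929 (plus strand).
LMO1: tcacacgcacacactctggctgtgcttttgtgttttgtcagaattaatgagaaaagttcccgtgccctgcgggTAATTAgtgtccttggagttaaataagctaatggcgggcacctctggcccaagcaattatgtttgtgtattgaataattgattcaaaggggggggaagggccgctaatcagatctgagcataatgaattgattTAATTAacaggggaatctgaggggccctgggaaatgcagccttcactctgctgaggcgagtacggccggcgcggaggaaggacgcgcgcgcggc
LMO3, start 1: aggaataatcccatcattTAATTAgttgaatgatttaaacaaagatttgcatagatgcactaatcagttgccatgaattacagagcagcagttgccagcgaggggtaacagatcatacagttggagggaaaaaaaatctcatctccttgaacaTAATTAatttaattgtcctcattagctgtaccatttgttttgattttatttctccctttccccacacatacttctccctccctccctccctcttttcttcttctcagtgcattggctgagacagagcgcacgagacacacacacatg
LMO3, start 3: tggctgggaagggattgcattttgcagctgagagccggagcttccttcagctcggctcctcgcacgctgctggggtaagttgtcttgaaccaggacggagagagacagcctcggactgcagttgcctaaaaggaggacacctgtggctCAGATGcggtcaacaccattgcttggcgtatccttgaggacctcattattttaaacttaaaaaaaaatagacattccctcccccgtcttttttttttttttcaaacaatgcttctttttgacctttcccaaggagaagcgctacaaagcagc
LMO4: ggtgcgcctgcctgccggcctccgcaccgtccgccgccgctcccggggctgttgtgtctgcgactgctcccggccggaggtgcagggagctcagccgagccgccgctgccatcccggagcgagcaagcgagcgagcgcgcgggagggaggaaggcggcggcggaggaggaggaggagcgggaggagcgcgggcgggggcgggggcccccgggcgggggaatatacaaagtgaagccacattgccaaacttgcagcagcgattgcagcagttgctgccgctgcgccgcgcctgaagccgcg
The windows differed in base composition, with a GC content of 50.7% for LMO1, 40% for LMO3 start 1, the lowest of the 9, 48.7% for LMO3 start 3, 74% for the LMO4 start shown and 67% for LDB1, where the median of all windows was 58.7%. A match or its absence describes these letters only.

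The targets were measured first. The siCTR libraries held MYCN at 1848, 1894 and 1786 CPM (reads of a gene scaled to the same total in each library), against 1338, 1245 and 1285 CPM with siMYCN and 898, 969 and 877 CPM with siHAND2. HAND2 had 516, 499 and 489 CPM in the controls, 588, 557 and 568 CPM with siMYCN, and 268, 267 and 280.4 CPM with siHAND2. Each target was thus lower in the libraries that received its own siRNA than in every control library, and MYCN was lowest in the siHAND2 libraries. The siHAND2 comparison therefore covers cells in which both targets were lowered, with MYCN down by 1.01 on the log2(CPM + 1) scale (limma, Benjamini-Hochberg adjusted p = 1.72e-10). In siMYCN, HAND2 was higher than in siCTR by 0.19 (limma, adjusted p = 0.00183), so the 2 knockdowns moved HAND2 in opposite directions. Libraries held 21.1 to 32.7 M assigned reads. All 12 sympathetic neuroblastoma markers listed, among them DBH and CHGA, were above 1 CPM in every library, and summed to 3315 to 3501 CPM in siCTR, 4041 to 4192 CPM in siMYCN and 3270 to 3395 CPM in siHAND2. Of these 12, 10 rose in siMYCN, and 3 rose and 4 fell in siHAND2 (limma, adjusted over all genes). The 4 that fell were HAND2, DBH, TH and DDC, and the 3 that rose were STMN2, GATA3 and ISL1. From siCTR to siHAND2 the mean of DBH went from 263 to 130 CPM and that of STMN2 from 177 to 343 CPM, so the sum covers opposite moves. The 3 leukocyte markers found in the table were under 1 CPM in all libraries and summed to at most 0.377 CPM. The 5 Schwann cell markers found summed to at most 3.34 CPM and the 4 endothelial ones to at most 1.19 CPM. The 8 fibroblast or stromal markers found moved with the groups, with a sum of 288 to 292 CPM in siCTR, 347 to 349.5 CPM in siMYCN and 621 to 703 CPM in siHAND2. Of the 7 of them tested, 6 rose in siMYCN, and 6 rose and 1 fell in siHAND2 (limma, adjusted over all genes). From siCTR to siHAND2 the mean of COL1A2 went from 1.66 to 15.9 CPM, that of DCN from 0.431 to 11.02, that of LUM from 9.15 to 54.7, that of COL3A1 from 1.42 to 3.84 and that of PDGFRA from 121.0 to 341 CPM. THY1, the 1 that fell, went from 65.4 to 56.8 CPM. COL1A1, not tested, was under 1 CPM in all 9 libraries. These values stand beside every result on siHAND2 that follows, and their part in it was not tested. In such bulk libraries a change in the share of cells of one type and a change in RNA per cell cannot be told apart.

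After the HAND2 siRNA all 5 measured members rose (18.1% of all tested genes did), LMO3 by the largest step, then LMO4 and LMO1, and LDB1 and LDB2 by smaller ones. After the MYCN siRNA the same genes moved apart: LMO4 and LDB1 rose, LMO3 and LDB2 fell, and no change in LMO1 was detected, where 35.9% of all tested genes were called. LMO3 and LDB2 therefore stood on opposite sides of the control level in the 2 knockdowns. A gene was tested where 3 or more libraries reached 1 CPM, which held for all 5, and calls refer to an adjusted p of 0.05 in limma over all 14495 genes that passed it.

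**Figure D1:**
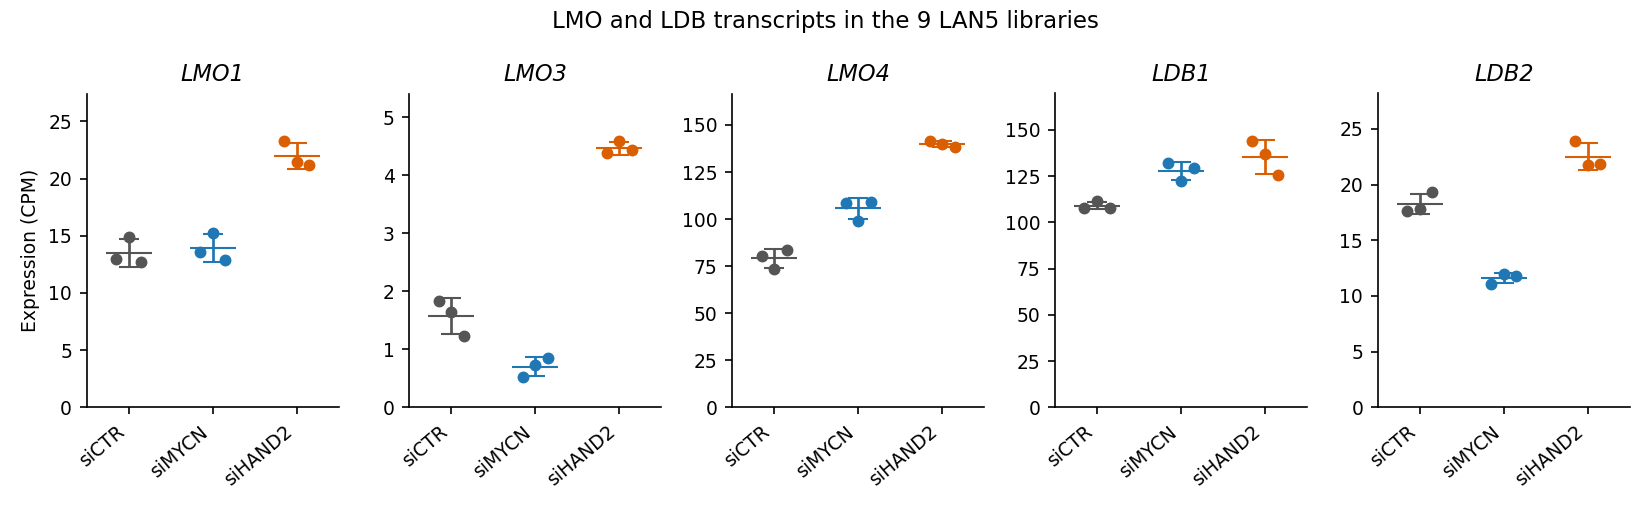
Expression in CPM (vertical axis, starting at 0, with its own scale per gene) of each member in the 9 libraries; points are libraries, horizontal bars the mean of 3 and whiskers the SD. The 3 siHAND2 points lie above all 3 siCTR points for every gene, while the siMYCN points lie below siCTR for LMO3 and LDB2, above it for LMO4 and LDB1, and among it for LMO1.

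Among the LIM-only genes, LMO1 (chromosome 11, 8224309 to 8268716, minus strand, positions as GRCh38) had control values of 13.0, 14.9 and 12.7 CPM, and siMYCN values of 13.6, 15.3 and 12.9 CPM. With siHAND2 it reached 23.3, 21.4 and 21.2 CPM. The siMYCN libraries were interleaved with the controls, and every siHAND2 library was above all 6 others. Group means in the order siCTR, siMYCN, siHAND2 were 13.5 ± 1.19, 13.93 ± 1.204 and 21.97 ± 1.12 CPM (SD, n = 3), so the siHAND2 mean was 1.63-fold that of siCTR. The difference from siCTR on the log2(CPM + 1) scale was 0.67 in siHAND2 (standard error 0.08, limma, adjusted p = 6.71e-06). In siMYCN it was 0.04 (adjusted p = 0.711), with a 95% interval from -0.12 to 0.21, and its sign turned with median-ratio rescaling (-0.011). The knockdowns themselves differed by 0.62 (limma, adjusted p = 1.31e-05). Of the 14495 genes tested, 256 had a larger rise than LMO1 in siHAND2.

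LMO3 (chromosome 12, 16548372 to 16610594, minus strand) was the scarcest member, with 1.83, 1.65 and 1.23 CPM in siCTR. The siMYCN values were 0.524, 0.729 and 0.857 CPM, and those of siHAND2 4.37, 4.58 and 4.43 CPM. The 3 groups did not overlap. Behind them stood 60, 44 and 26 reads for the controls, 13, 19 and 25 for siMYCN, and 133, 115 and 125 for siHAND2. Counting error alone gives the lowest siCTR library an exact 95% Poisson interval of 0.806 to 1.81 CPM. The interval of the highest siMYCN library, 0.554 to 1.26 CPM, overlaps much of it. That of the lowest siMYCN library, 0.279 to 0.895 CPM, also overlaps it, whereas the lowest siHAND2 bound was 3.66 CPM. Mean levels were 1.57 ± 0.307, 0.703 ± 0.168 and 4.46 ± 0.107 CPM (SD, n = 3), which put siMYCN at 44.7% of siCTR and siHAND2 at 2.84-fold. On the log2(CPM + 1) scale LMO3 fell by 0.59 in siMYCN (limma, adjusted p = 0.00129) and rose by 1.09 in siHAND2 (standard error 0.12, adjusted p = 4.04e-06), and the knockdowns differed by 1.69 (adjusted p = 1.88e-08). The 1 CPM added before taking logs compresses these values. With pseudocounts of 0.1 and 5 and with precision weights they ranged from -1.17 to -0.20, from 0.53 to 1.48 and from 0.73 to 2.65, each still called. Only 21 tested genes exceeded LMO3 in the rise from siMYCN to siHAND2.

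LMO4 (chromosome 1, 87328880 to 87348923, plus strand), the LIM-only member with the most reads, climbed in steps over the groups. The controls gave 80.5, 73.7 and 83.4 CPM, the siMYCN libraries 108.6, 99.1 and 109.2 CPM, and the siHAND2 libraries 141.3, 139.9 and 138.3 CPM. No library of one group reached the range of another. The means were 79.2 ± 4.96, 105.6 ± 5.66 and 139.8 ± 1.504 CPM (SD, n = 3), or 1.33-fold and 1.77-fold the siCTR mean. LMO4 rose by 0.41 in siMYCN (standard error 0.05, limma, adjusted p = 1.40e-05) and by 0.81 in siHAND2 (adjusted p = 5.56e-09), with 0.40 between the knockdowns (adjusted p = 1.71e-05). It ranked behind 828 of the tested genes by rise in siMYCN and behind 162 in siHAND2.

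The adaptor LDB1 (chromosome 10, 102106489 to 102120368, minus strand) had control values of 107.8, 111.4 and 107.9 CPM, against 131.8, 122.4 and 129.3 CPM with siMYCN and 143.7, 136.8 and 125.7 CPM with siHAND2. Both knockdowns lay above the control range, and they overlapped with each other. LDB1 rose by 0.23 in siMYCN (standard error 0.05, limma, adjusted p = 0.00210) and by 0.31 in siHAND2 (adjusted p = 0.000194), or 1.17-fold and 1.24-fold of the siCTR mean of 109.0 ± 2.09 CPM (SD, n = 3). Its rise was exceeded by 2850 tested genes in siMYCN and by 1377 in siHAND2. With median-ratio rescaling or quantile normalization the rise in siMYCN was 0.17, still called. The difference between the knockdowns was 0.08, with a 95% interval from -0.02 to 0.19 (adjusted p = 0.248). Without siHAND2 replicate 3, the lowest of its group, it was 0.13 and passed the threshold (adjusted p = 0.0347, where all alternatives ranged from 0.0347 to 0.629).

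LDB2 (chromosome 4, 16501541 to 16898678, minus strand), the second adaptor, had control values of 17.7, 17.8 and 19.3 CPM. Its siMYCN values were 11.1, 12.0 and 11.8 CPM, and its siHAND2 values 23.9, 21.7 and 21.8 CPM. The siMYCN libraries were below and the siHAND2 libraries above every control. The means of 18.3 ± 0.918, 11.6 ± 0.442 and 22.5 ± 1.21 CPM (SD, n = 3) put siMYCN at 63.6% of siCTR and siHAND2 at 1.23-fold. LDB2 fell by 0.61 in siMYCN (standard error 0.07, limma, adjusted p = 3.37e-06), a fall exceeded by 84 tested genes. It rose by 0.29 in siHAND2 (adjusted p = 0.00371), a rise exceeded by 1578 tested genes, and the knockdowns differed by 0.90 (adjusted p = 2.45e-08). The one row of the table that overlapped a member was AC104656.1, on the strand opposite LDB2, at no more than 0.359 CPM in any library.

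**Figure D2:**
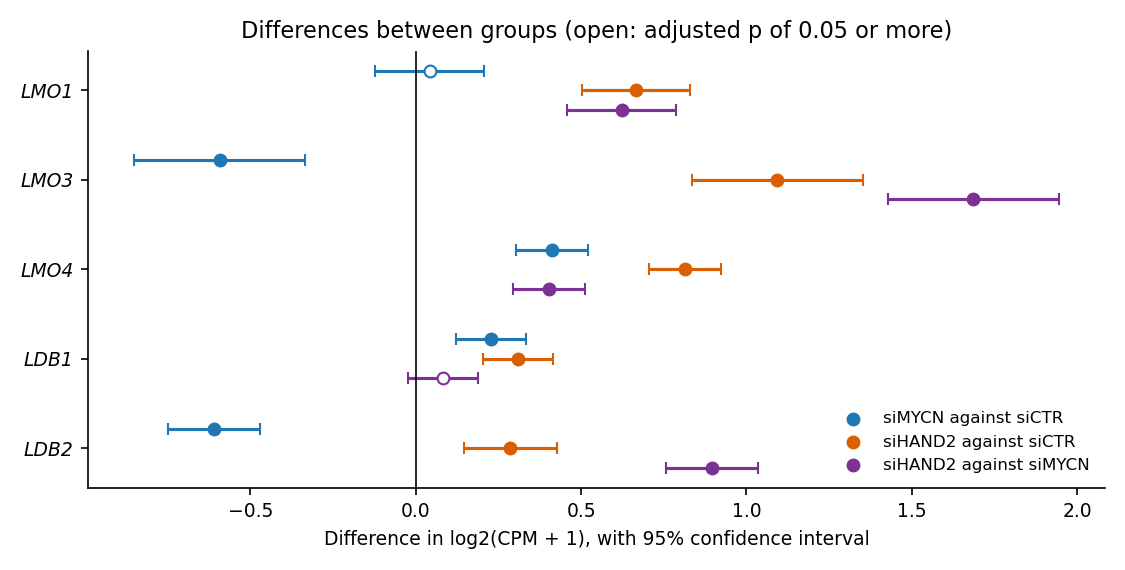
Difference in log2(CPM + 1) (horizontal axis) of each member (vertical axis) in the 3 comparisons, with 95% confidence intervals from limma; filled points passed an adjusted p of 0.05 and open points did not. For LMO3 and LDB2 the siMYCN and siHAND2 points fall on opposite sides of 0, and the open points are LMO1 in siMYCN (0.04) and LDB1 between the knockdowns (0.08).

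Read against all genes, 4 of 5 members were called in siMYCN, 2 higher and 2 lower, where 35.9% of tested genes were called, 24.5% higher and 11.4% lower. In siHAND2 5 of 5 were called higher, where 29.9% of tested genes were called and 18.1% were called higher. Between the knockdowns 4 of 5 were called higher in siHAND2, where 26.9% were called, 11.4% higher and 15.5% lower. Libraries of the groups compared did not overlap for 4, 5 and 4 of the 5 members, against 49.5%, 42.4% and 38.7% of tested genes in those comparisons. The median difference of the 5 members was 0.04 in siMYCN against 0.06 over all genes, and their median absolute difference 0.41 against 0.14. In siHAND2 the median was 0.67 against 0.04, and between the knockdowns 0.62 against -0.01. The split of all calls moved with the scaling: 68.3% of siMYCN calls and 60.6% of siHAND2 calls were rises with CPM as deposited, and 51.2% and 47.1% after median-ratio rescaling or 49.3% and 47.8% after quantile normalization. Between the knockdowns the share was 42.4%, 49.6% and 51.9%. The called members kept their direction under both rescalings. The contrasts against siCTR share the control libraries, so the values of the 2 knockdowns are given side by side. The combination seen for LMO3 and LDB2, lower in siMYCN, higher in siHAND2 and different between them, was met by 47 of the 14495 tested genes (0.324%). LMO4's combination of rises in both with a further rise in siHAND2 was met by 195 genes (1.35%), that of LMO1 by 594 (4.10%) and that of LDB1 by 1054 (7.27%).

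**Figure D3:**
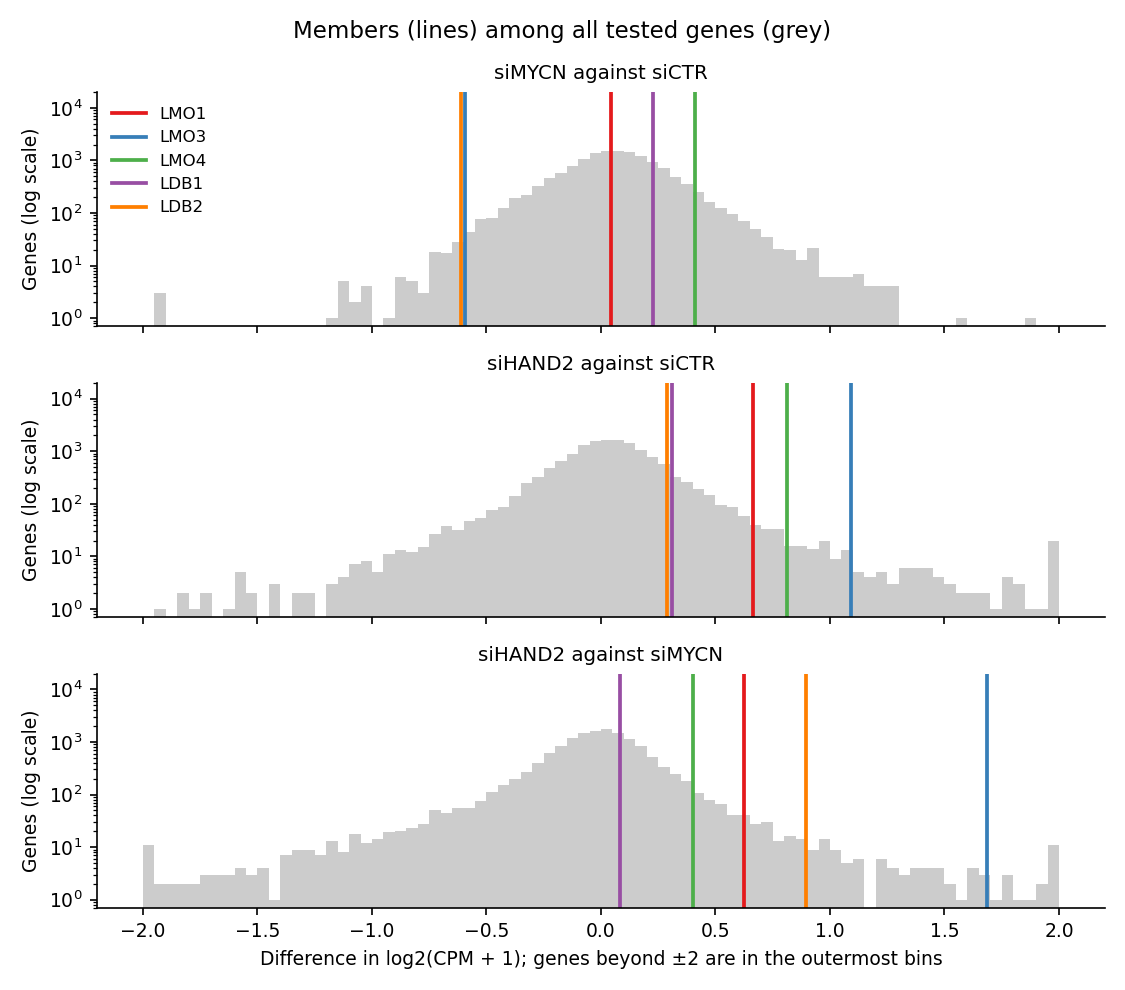
Histograms of the difference in log2(CPM + 1) over the 14495 tested genes (grey, number of genes on a log scale) in the 3 comparisons, with a vertical line at each member. In siMYCN the lines of LMO3 (-0.59) and LDB2 (-0.61) stand in the left tail and that of LMO4 (0.41) on the right, while in siHAND2 all 5 lie right of the median of 0.04.

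Levels of different genes were compared per kilobase (kb) of the canonical transcript, since longer transcripts give more reads. In siCTR the order was LDB1 (35.2 ± 0.675 CPM per kb), LMO4 (15.9 ± 0.993), LMO1 (10.4 ± 0.920), LDB2 (7.66 ± 0.385) and LMO3 (0.463 ± 0.0905, SD, n = 3). The same order held in siMYCN and in siHAND2, and in none of the 3 groups did neighbours in it overlap between libraries. LDB1 and LMO4 thus made up most of the measured transcripts in each group, and LMO3 was 1.73 ± 0.344% of the summed LMO level in siCTR, 0.645 ± 0.157% in siMYCN and 2.84 ± 0.118% in siHAND2. These LMO3 shares depend on the length used, 3393 bases for its canonical transcript against 10002 for the union of all its exons. By that union the siCTR levels were 0.157 CPM per kb for LMO3, 7.92 for LMO1 and 14.6 for LMO4, which makes the LMO3 share smaller. Because LMO proteins act bound to LDB proteins, the LMO levels were also set over the LDB levels of the same library, as a description without a test. Summed LMO per kb over summed LDB per kb came to 0.632, 0.616 and 0.626 for the controls, 0.687, 0.716 and 0.688 for siMYCN, and 0.843, 0.862 and 0.913 for siHAND2. The 3 groups did not overlap. With the union of all exons as length the means were 0.704, 0.771 and 0.980, in the same order. LMO4 over LDB1 averaged 0.451 ± 0.0362 in siCTR, 0.513 ± 0.0109 in siMYCN and 0.642 ± 0.0369 in siHAND2. LMO1 over LDB1 did not follow that order, with 0.296 ± 0.0203 in siCTR, 0.262 ± 0.0322 in siMYCN and 0.389 ± 0.0147 in siHAND2, and its siCTR and siMYCN libraries overlapped. LDB2 made up 17.9 ± 0.893% of the summed LDB level in siCTR, 10.6 ± 0.699% in siMYCN and 17.8 ± 0.644% in siHAND2, so that the smaller share was seen with siMYCN, where LDB2 fell and LDB1 rose. With the exon union as length these shares were 10.4%, 5.93% and 10.3%, lower throughout and in the same order.

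**Figure D4:**
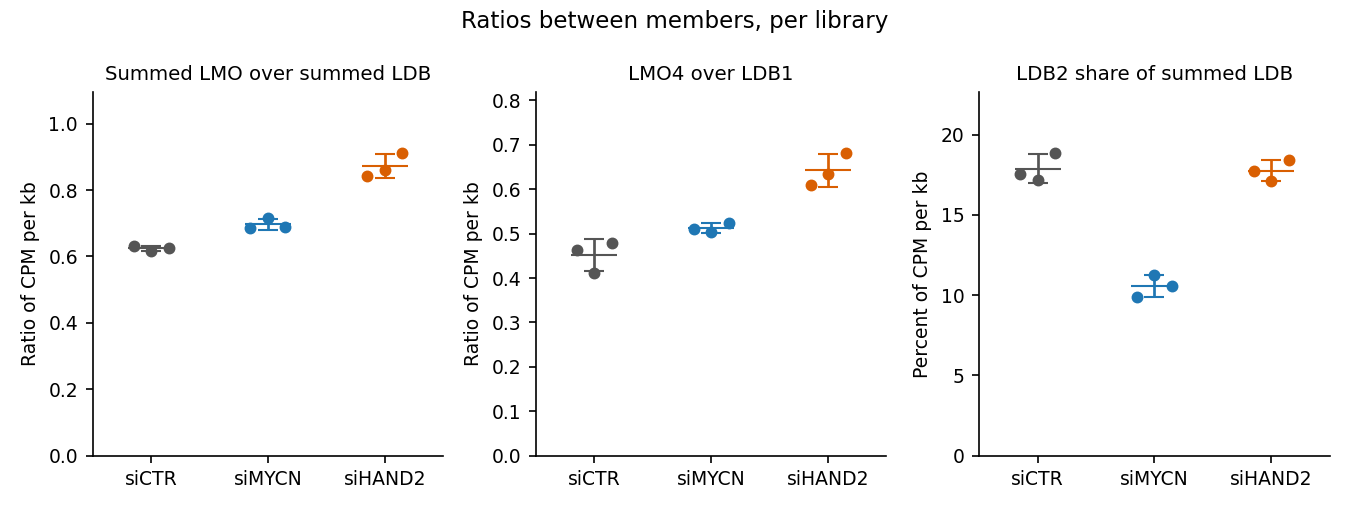
Ratios between members in each library, from CPM per kb of canonical transcript (vertical axes start at 0); points are libraries, bars the mean of 3 and whiskers the SD. The LMO to LDB ratio goes from 0.624 in siCTR to 0.872 in siHAND2, and the LDB2 share is 10.6% in siMYCN against 17.9% and 17.8% in the other groups.

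The nearest tested gene on each side of every member was set beside it, to see whether neighbours moved alike. Of these 10 genes, 2 rose and 1 fell in siMYCN, 1 rose and 1 fell in siHAND2, with differences from -0.27 to 0.24 and from -0.17 to 0.28 on the log2 scale. The neighbours of LMO1, RIC3 at 55.3 kb and STK33 at 123 kb, differed from siCTR in siHAND2 by -0.09 and -0.02 (limma, adjusted p = 0.468 and 0.904), beside 0.67 for LMO1. HS2ST1, 219 kb from LMO4 and a heparan sulfate sulfotransferase gene, differed by 0.10 in siHAND2 (adjusted p = 0.249), beside 0.81 for LMO4. PPRC1, a coactivator gene 12.6 kb from LDB1, fell by 0.27 in siMYCN (adjusted p = 0.000899) while LDB1 rose. TAPT1, 274 kb from LDB2, rose by 0.20 in siMYCN (adjusted p = 0.00574) while LDB2 fell. On the other side of LDB2, QDPR at 562 kb fell by 0.17 in siHAND2 (adjusted p = 0.0277) while LDB2 rose. PLEKHA5, 2519 kb from LMO3, rose by 0.24 in siMYCN (adjusted p = 0.00691), where LMO3 fell, and by 0.28 in siHAND2 (adjusted p = 0.00302), where LMO3 also rose. The nearest tested genes were thus distant for some members, as was PKN2 at 1335 kb from LMO4.

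Other components of the LMO and LDB complexes were taken from lists of genes known for these roles. Of the 5 genes for SSBP proteins, which bind and stabilise LDB1, and for the ubiquitin ligases RLIM and RNF6, 1 rose and 1 fell in siMYCN and 1 rose in siHAND2. SSBP2 rose in siHAND2 from 37.9 ± 1.02 to 59.5 ± 2.15 CPM (SD, n = 3), by 0.64 (limma, adjusted p = 4.84e-08), and differed by 0.10 in siMYCN (adjusted p = 0.123). SSBP3 rose in siMYCN by 0.24 (adjusted p = 0.00378) and was 0.01 below siCTR in siHAND2 (adjusted p = 0.888). SSBP4 fell in siMYCN by 0.19 (adjusted p = 0.0472), a call lost without any one of siCTR replicates 1 or 2, siMYCN replicates 2 or 3, or siHAND2 replicate 2, where it was -0.18, -0.14, -0.15, -0.18 and -0.19. Dropping the low-value filter or the intensity trend also ended that call. In siHAND2 2 of the 5 genes were called higher with the replicate block, without siMYCN replicate 3 or without siHAND2 replicate 1, and 1 was called lower with the block or without siCTR replicate 3.

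Among the 12 genes for LIM-homeodomain factors, DNA-binding proteins that compete with LMO proteins for LDB1, 4 passed the filter, and 1 rose and 1 fell in each knockdown. ISL1, a regulator of sympathetic and motor neurons, rose from 202 ± 3.50 CPM to 250.7 ± 5.19 in siMYCN and 313 ± 13.1 in siHAND2 (SD, n = 3), by 0.31 and 0.63 (limma, adjusted p = 2.53e-05 and 7.81e-09). LHX6 fell from 2.51 ± 0.262 CPM to 1.42 ± 0.138 and 1.36 ± 0.315, differences of -0.54 and -0.58 (adjusted p = 0.00321 and 0.00226). ISL1 thus rose in both knockdowns, like LMO4 and LDB1. The siHAND2 counts moved in some settings. With a pseudocount of 5, either rescaling, no intensity trend, the replicate block or without siHAND2 replicate 3, 2 were called lower, and with the filter of 5 CPM 0 were. With the block or without siHAND2 replicate 1, 2 were called higher.

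Of the 13 DNA-binding partners described for LMO complexes, 8 were tested, of which 4 rose in siMYCN and 3 rose in siHAND2. With median-ratio rescaling, or without siMYCN replicate 3, 2 rose in siMYCN. The TAL1-related gene LYL1 rose in siMYCN from 5.74 ± 0.760 to 8.16 ± 0.426 CPM (SD, n = 3), by 0.45 (limma, adjusted p = 0.00116). GATA2, a zinc-finger partner, rose by 0.47 in siMYCN (adjusted p = 3.25e-05) and by 0.30 in siHAND2 (adjusted p = 0.00205). TCF12, an E protein that pairs with other helix-loop-helix factors, rose in siHAND2 by 0.29 (adjusted p = 9.19e-05).

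Of 8 further proteins described as bound by LMO2 or LMO4, limma called 0 in siMYCN at an adjusted p of 0.05, and 2 had an unadjusted p under 0.05. Up to 2 were called when 1 library was left out, and 1 with either rescaling, with the replicate block, or in a fit of the 2 groups compared alone. In siHAND2 KDM5A, a histone demethylase, rose by 0.22 (limma, adjusted p = 0.00405) and IL6ST, the gp130 receptor subunit, fell by 0.20 (adjusted p = 0.00925), a call lost without siHAND2 replicate 2 (-0.15). In siHAND2 2 were called higher with a pseudocount of 5, the filter of 5 CPM, the replicate block or without siHAND2 replicate 3. There 2 were called lower with that filter, either rescaling, precision weights, the block, or without siCTR replicate 3 or siHAND2 replicate 1. Among 14 genes for other small LIM-domain proteins, 8 were tested, of which 3 rose in siMYCN, and 3 rose and 1 fell in siHAND2. CSRP2, a cysteine-rich LIM protein, rose by 0.69 in siMYCN (adjusted p = 2.97e-08) and fell by 0.27 in siHAND2 (adjusted p = 0.000281), the reverse of LMO3 and LDB2. CRIP2 rose by 0.84 and 0.40 (adjusted p = 1.02e-06 and 0.00117). In siHAND2 1 of these genes was called higher, not 3, with no low-value filter, with either rescaling, in a fit of the 2 groups alone, or without siCTR replicate 1 or siHAND2 replicate 1. Of the 13 neuroblastoma core circuit factors, which include both targets and 4 genes of the lists above, 12 were tested, of which 7 rose and 1 fell in siMYCN, and 5 rose and 5 fell in siHAND2. That list is not independent of the study, which targeted 2 of its genes. The lists were small, and their counts are to be read beside 35.9% and 29.9% called over all genes.

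Genes whose level followed each member most closely over the 9 libraries were taken by Pearson's r of log2(CPM + 1), among tested genes that averaged 5 CPM or more. These r are descriptions, since the libraries form 3 groups and r mostly reflects the group means. PEG10, a retrotransposon-derived imprinted gene, followed LMO3 (r = 0.991) with means of 119.2, 92.7 and 192.5 CPM in siCTR, siMYCN and siHAND2, and TOP1 (r = 0.985) and SGPP2 (r = 0.983) came next. LMO4 was followed by TMEM200C (r = 0.991), RASSF8 (r = 0.987) and the Wnt inhibitor gene DKK1 (r = 0.987). DKK1 went from 9.41 CPM in siCTR to 14.4 in siMYCN and 22.7 in siHAND2. For LMO1 they were SAMHD1 (r = 0.980), AGO4 (r = 0.977) and the retinoic acid receptor gene RARB (r = 0.976), which was at 24.1, 25.4 and 42.0 CPM. LDB1 was followed by ETFB (r = 0.983), LZTS1 (r = 0.982) and ARHGEF40 (r = 0.978), and LDB2 by HNRNPC (r = 0.983), CALN1 (r = 0.977) and IGSF9 (r = 0.977). Among the members themselves r was highest between LMO3 and LDB2 (0.904) and between LMO4 and LDB1 (0.895), and lowest between LDB1 and LDB2 (0.0573).

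**Figure D5:**
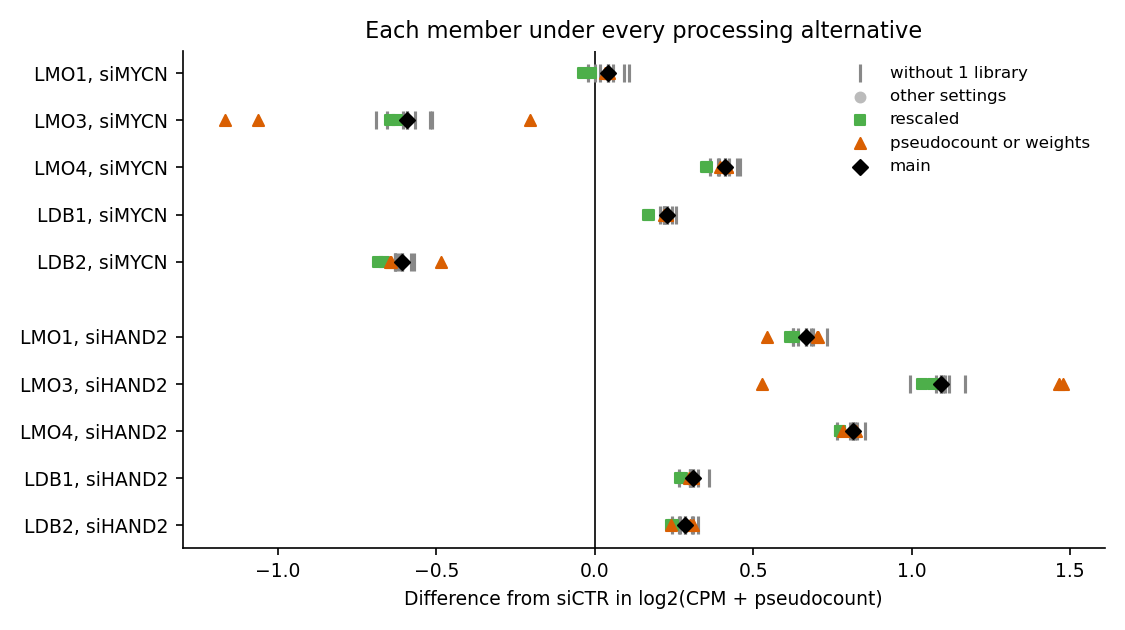
Difference of each member from siCTR (horizontal axis, log2 scale) in siMYCN (upper rows) and siHAND2 (lower rows) under the main setting and every alternative. LMO1 in siMYCN crosses 0, from -0.04 to 0.11, and LMO3 shifts with the pseudocount or weights, from -1.17 to -0.20 in siMYCN and 0.53 to 1.48 in siHAND2. The other values move less and keep their sign, for example LDB2 from -0.69 to -0.48 and LDB1 from 0.17 to 0.26 in siMYCN.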

How the data were processed

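RNA sequencing of total RNA gave 9 libraries, 3 per group as labelled. The authors deposited 1 table of CPM values for 25084 genes, in which each column sums to 1000002.4 to 1000002.6, including a constant of 0.0001 in every value. Per the submitters' processing notes, STAR 2.5.1 and Partek were used, and hg19/GRCh37 is named. The gene starts are GRCh38 positions all the same: 8208 of 18213 symbols had the identical start in a GRCh38 gene table, and 149 of 18635 in a GRCh37 annotation, so positions are given as GRCh38, with 1 base taken off the stop. Counting rules, strand use and annotation are not given in the sources used here. Depth was read from the smallest step of the low CPM values. Per library, 79.4% to 80.9% of the values no larger than 20 steps fell within 0.02 of a whole number of steps, too few for a count model; the members' values were whole reads within 0.13 of a read.

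Values were taken as log2(CPM + 1), which understates changes near 1 CPM, for the 14495 genes that reached 1 CPM in 3 or more libraries. limma 3.58.1 (R 4.3.3) estimated the 3 group means from all 9 libraries together, with eBayes and an intensity trend. Tests are two-sided, adjusted by Benjamini-Hochberg over all genes, with a threshold of 0.05. Columns were matched to samples by name. Canonical transcript and exon lengths came from GENCODE lifted to GRCh37, by symbol. Data for siMYCN against siCTR were also simulated, with the same spread between libraries for every gene (negative binomial dispersion of 0.005). Of 199 genes changed by 1 on the log2 scale, 98.0% were recovered, with 16 false calls (14369 tested). Of 199 changed by 0.5, 82.9% were recovered, with 11 false calls (14373 tested). Real genes differ in spread, so these shares hold for that setting only.

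The members and lists were chosen with earlier results of these data known. Named genes are the members, MYCN and HAND2, for each list up to 2 called genes with the smallest p in each comparison with siCTR, and for each member the 3 genes of highest Pearson r; neighbours are the nearest tested genes. Single-gene results for part of the listed factors are not reported here. Alternatives were pseudocounts of 0.1 and 5, quantile normalization, median-ratio rescaling, dropping the filter or raising it to 5 CPM, the 2 groups alone, no intensity trend, precision weights (voom), replicate number as a block, and each library left out.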

Additional observations from a re-analysis of the deposited data

Results flagged for a closer look

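Groups of 3 libraries were too small to test for outlying samples. For LMO3 and LDB2, every siMYCN library lay below and every siHAND2 library above the siCTR libraries, so the effects of the 2 siRNAs had opposite signs. The direct difference, siHAND2 minus siMYCN on the log2(CPM + 1) scale, was 1.69 for LMO3 and 0.90 for LDB2 (limma, adjusted p = 1.88e-08 and 2.45e-08). Both genes were picked here for opposite calls against the same controls, and the direct difference adds the sizes of those 2 differences. Its p-values are therefore no separate support. LMO3 was measured with 13 to 133 reads per library, and LDB2 with 276 to 726.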

How the results depend on the processing

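The siMYCN count of called members was 4 under every alternative except the filter of 5 CPM, which removed LMO3 and left 3 of 4; the siHAND2 count was 5 and became 4 for the same reason, and the count between the knockdowns was 4, 3 with that filter and 5 without siHAND2 replicate 3. Of 94 alternative values of members in siMYCN, 91 kept direction and call; the 3 that turned were LMO1, at -0.011 with median-ratio rescaling, -0.038 with quantile normalization and -0.021 without siMYCN replicate 2, and leaving out 1 library moved it between -0.021 and 0.11. All 94 in siHAND2 held. Some of these alternatives leave the log2 value as it was, so that only the call could change. They are the changes of filter, no intensity trend, the replicate block, the 2 groups alone, and leaving out a library of the group not compared. With no filter on low values, which adds genes near 0, 18.5% of genes were called in siMYCN, 16.2% in siHAND2 and 14.9% between the knockdowns. With the filter of 5 CPM, which removed LMO3, 42.6% of genes were called in siMYCN. Libraries of the same group correlated by 0.996 to 0.998 on log2(CPM + 1). With each gene's group mean taken off, same-numbered libraries of different groups correlated by -0.04 to 0.31, above 0.1 in 6 of 9 pairs. Differently numbered ones did so by -0.30 to 0.14, and mostly less than the same-numbered ones. Among the exceptions was siMYCN replicate 2, at 0.14 with siHAND2 replicate 3 and -0.04 with siHAND2 replicate 2. Another was siCTR replicate 2, at 0.12 with siHAND2 replicate 1 and 0.04 with siHAND2 replicate 2. Because the deviations within a group sum to 0, lower values for differently numbered pairs are partly forced. The labels do not say that a number stands for a shared batch, and the main fit did not pair the samples by it. With replicate number as a block, 40.7%, 35.1% and 32.3% of genes were called in the 3 comparisons. Without it the shares were lower, at 35.9%, 29.9% and 26.9%. No call of a member changed with the block. The depth limits LMO3 most, at 13 reads in its lowest library.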
